A study of Mus musculus with 4 samples.

Results

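The 7 genes described here encode the chains of the IL6 receptor, a related receptor chain and the Janus kinases: Il6ra, Il6st, Il27ra, Jak1, Jak2, Jak3 and Tyk2. They were taken by name from whole-genome arrays, on which 11 probes that are not controls carried one of these 7 gene names. All 11 probes passed the filter on dim probes, and the 7 genes stood among 19932 genes tested. IL6 binds the receptor chain encoded by Il6ra, which then recruits the signalling chain encoded by Il6st, the chain that the whole IL6 family of cytokines shares. Janus kinases held on the inner side of the signalling chain phosphorylate the receptor and STAT factors, mainly STAT3, which move to the nucleus. In CD4 T cells this pathway, together with TGFb, steers cells towards the Th17 type and away from the regulatory type.

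RNA came from mouse lymph node CD4 T cells. They were grown for 4 days with plate-bound anti-CD3 (1 ug/ml), an antibody that triggers the T cell receptor. All cells received IL2 at 100 units/ml during an incubation of 3 days. The 4 conditions were TGFb at 4 ng/ml with IL6 at 25 ng/ml (4 arrays), TGFb alone (3 arrays), IL6 alone (3 arrays) and IL2 with neither (3 arrays). Each of the 13 two-colour arrays carried Treg and T-effector RNA of 1 condition in opposite dyes. The labels give no age, strain or genotype of the mice, do not say how Treg and T-effector cells were separated, and do not state whether the arrays of a condition hold independent cultures. The p-values measure only the spread between arrays, which may be technical.

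Signals below are normalized log2 intensities, and a difference of 1 is a doubling of signal. A gene was counted as changed where limma's adjusted p (Benjamini-Hochberg over all 19932 genes) was below 0.05, and errors of differences are standard errors. The arrays lay on 5 slides, here called A to E. Arrays 1, 2 and 3 of TGFb with IL6 and of TGFb alone shared slide and dye orientation pair by pair (slides E, B and D). Between 38.9% and 69.8% of the probes that are not controls were well above background in Treg channels, and between 41.8% and 67.0% in T-effector channels. As a check of the labels, Foxp3, the defining factor of regulatory T cells, had a log2 ratio of Treg to T-effector signal of 1.72 to 2.71 over the 13 arrays, above 0 on all 13. All 8 T cell markers listed (among them Cd3e and Cd4) were well above background on every array. In such samples, fewer cells of a type and less RNA per cell cannot be told apart.

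Promoter sequences of Il6st and Jak2 are shown because the condition means of these 2 genes spanned most in T-effector samples. They are the 250 bases before the start of each gene in RefSeq (GRCm38.p6), 5′ to 3′ on the gene's strand. Capitals mark matches to TTNNNNGAA on either strand, a loose form of the STAT binding motif.

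Il6st, chr13:112463820-112464069, plus strand: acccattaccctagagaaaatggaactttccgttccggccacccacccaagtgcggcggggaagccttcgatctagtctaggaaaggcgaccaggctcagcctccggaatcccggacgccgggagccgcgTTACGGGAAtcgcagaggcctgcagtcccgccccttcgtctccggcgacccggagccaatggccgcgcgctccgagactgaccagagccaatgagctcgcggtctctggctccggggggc

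Jak2, chr19:29251553-29251802, plus strand: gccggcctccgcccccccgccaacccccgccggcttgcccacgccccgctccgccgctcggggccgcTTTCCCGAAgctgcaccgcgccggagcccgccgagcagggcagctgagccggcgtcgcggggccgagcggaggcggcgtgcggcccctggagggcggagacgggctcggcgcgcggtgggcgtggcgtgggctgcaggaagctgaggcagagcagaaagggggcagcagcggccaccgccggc

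The Il6st match TTACGGGAA lay 112 to 120 bases before the start, and the Jak2 match TTTCCCGAA lay 175 to 183 bases before it. Of the 7 genes, 6 had a promoter in the reference table, and Il27ra is named only. Il6ra and Jak1 also held 1 match each, while Jak3 and Tyk2 held none. Such a match was found in 34.2% of all 32851 promoters of this length. The stricter motif TTCNNNGAA, present in 7.02% of promoters, was in none of the 6. The letters CAGAC, the core of the motif bound by the SMAD factors that carry TGFb signals (42.2% of promoters, either strand), were found in Tyk2 only. A match describes the sequence and does not show binding.

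Il6st rose with IL6 in both cell samples where TGFb was present. In Treg samples its probe (chr13:109662276-109662335 in the mm7 coordinates of the files) gave log2 signals of 10.71, 10.61, 10.54 and 10.95 with TGFb and IL6, against 8.92, 9.10 and 8.91 with TGFb. In T-effector samples the signals were 9.50, 9.49, 9.49 and 9.95 with TGFb and IL6, against 8.47, 8.66 and 8.34 with TGFb. In neither sample type did the conditions overlap. The difference was 1.73 ± 0.11 in Treg samples, which is 3.31-fold (adjusted p = 1.61e-09), and 1.11 ± 0.11 in T-effector samples, which is 2.16-fold (adjusted p = 9.15e-07). Between the paired arrays of slides B, D and E the differences were 1.50, 1.63 and 1.78 in Treg samples and 0.83, 1.15 and 1.03 in T-effector samples. With slide as a block they were 1.69 ± 0.11 and 1.08 ± 0.11. Ranked by p, Il6st was number 18 of 19932 genes in Treg samples and number 87 in T-effector samples.

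Without TGFb the IL6 difference of Il6st was small. Treg samples gave 8.56, 8.66 and 8.72 with IL6, against 8.40, 8.09 and 8.12 with IL2. T-effector samples gave 8.08, 8.15 and 8.14 with IL6, against 8.25, 8.13 and 8.30 with IL2. The Treg values did not overlap, the T-effector values did. The difference was 0.43 ± 0.12 in Treg samples (adjusted p = 0.124) and -0.10 ± 0.12 in T-effector samples (adjusted p = 1), with a 95% interval of -0.36 to 0.16 in the T-effector samples. On slide A, the 1 slide holding both conditions in the same dyes, it was 0.26 in Treg and -0.11 in T-effector samples.

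The dependence on TGFb was tested directly. The IL6 difference of Il6st was larger with TGFb than without it by 1.29 ± 0.17 in Treg samples (adjusted p = 0.000136) and by 1.21 ± 0.17 in T-effector samples (adjusted p = 0.000323). Il6st was the 1 member of 7 past the threshold in each sample type. Of all genes, 0.968% passed in Treg samples (0.572% upwards) and 1.01% in T-effector samples (0.707% upwards). When slide E was left out, the T-effector value was 1.19 and its adjusted p 0.119. Averaged over the presence of TGFb, IL6 raised Il6st by 1.08 ± 0.08 in Treg samples (adjusted p = 2.31e-08) and by 0.51 ± 0.08 in T-effector samples (adjusted p = 0.000409). Of all genes, 6.27% changed in Treg (3.09% upwards) and 5.89% in T-effector samples (3.24% upwards). The adjusted p of the T-effector average was 0.059 without slide E.

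TGFb itself also went with a higher Il6st. Against IL2, TGFb raised it by 0.76 ± 0.12 in Treg samples (adjusted p = 0.000218), where it was 1 of 7 members that rose while 7.88% of all genes changed and 3.73% rose. The T-effector value was 0.27 ± 0.12 (adjusted p = 0.256). Against IL6 alone, TGFb with IL6 raised it by 2.06 ± 0.11 in Treg samples, which is 4.16-fold (adjusted p = 4.1e-11), and by 1.48 ± 0.11 in T-effector samples, which is 2.79-fold (adjusted p = 8.77e-09). It was again 1 of 7 members that rose, while 10.2% of all genes changed in Treg (4.95% upwards) and 11.4% in T-effector samples (5.29% upwards). The order of the Treg levels was thus TGFb with IL6, TGFb, IL6 and IL2, with no overlap between neighbours. In T-effector samples the order was TGFb with IL6, TGFb, IL2 and IL6, where IL2 and IL6 did not differ beyond their spread.

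**Figure D1:**
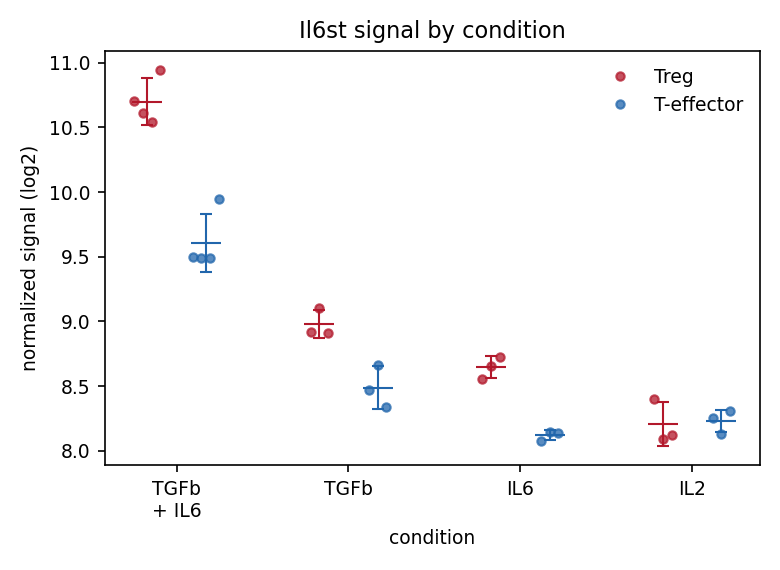
Normalized log2 signal of Il6st on every array (points) in Treg (red) and T-effector (blue) samples of the 4 conditions, with the mean and 1 SD (n = 4 for TGFb with IL6, n = 3 otherwise). The TGFb with IL6 arrays lie between 10.54 and 10.95 in Treg samples and between 9.49 and 9.95 in T-effector samples, above all arrays of the other conditions for the same sample type.

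Between the cell samples, Il6st was higher in Treg in 3 of the 4 conditions, though with IL6 the sign turned to -0.19 when ratios were centred on each array's median instead of normalized by loess. The log2 ratio of Treg to T-effector was 1.21, 1.12, 1.05 and 1.00 with TGFb and IL6. It was 0.45, 0.44 and 0.57 with TGFb and 0.48, 0.51 and 0.59 with IL6. With IL2 it was 0.15, -0.04 and -0.19, on both sides of 0, though median centring gave -0.66 (adjusted p = 0.0144). The fitted ratios were 1.09 ± 0.07 with TGFb and IL6 (2.13-fold, adjusted p = 1.01e-05), 0.48 ± 0.08 with TGFb (adjusted p = 0.00524), 0.52 ± 0.08 with IL6 (adjusted p = 0.00504) and -0.02 ± 0.08 with IL2 (adjusted p = 0.917). The authors' deposited table gives log2 values of 1.14, 0.57, 0.47 and -0.02 for this probe in the same order. Of the 7 members, 1 (Il6st) passed in each of the first 3 of these conditions. Of all genes, 5.82% passed with TGFb and IL6 (3.49% upwards), 5.92% with TGFb (4.12% upwards) and 5.82% with IL6 (3.75% upwards). The call with TGFb was lost without its array 3 or without slide B (0.51, adjusted p = 0.0589), and that with IL6 without its array 3 or without slide E (0.47, adjusted p = 0.111).

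The ratio of Il6st was higher by 0.61 ± 0.11 with TGFb and IL6 than with TGFb (adjusted p = 0.0421), and in this comparison 0.291% of all genes passed (0.100% upwards). This call was close to the threshold: with the replicate block, which pairs the arrays of a slide, the value was 0.62 and the adjusted p 0.0678, and with slide as a block the adjusted p was 0.00933. The call held without array 1 of IL2 or array 2 of IL6 and was lost without any single one of the other 11 arrays, without slide B (0.61, adjusted p = 0.863) and without slide E (0.56, adjusted p = 0.316). Without TGFb the ratio was higher by 0.53 ± 0.12 with IL6 than with IL2, and the adjusted p was 0.633. In that comparison limma called 0 of 7 members and 0 of all genes (0%), while 1 member and 685 genes had an unadjusted p below 0.05.

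Other cell markers also differed in the Treg samples with IL6 added to TGFb, and not all in the direction of Il6st. Of all genes, 5.71% changed in this comparison in Treg and 7.59% in T-effector samples. The summed signal of 8 CD8 T and NK cell markers (linear normalized intensity) was 5477 to 6198 in Treg samples with TGFb and IL6, against 3660 to 5003 with TGFb, and 2 of the 8 rose. The summed signal of 9 B cell markers was 4957 to 5441 with TGFb and IL6, against 9142 to 10192 with TGFb, and 1 of the 9 fell. In T-effector samples both sums overlapped between these conditions, 1 of the 9 B cell markers fell and 1 of the 8 CD8 T and NK cell markers rose. Of the defining B cell genes, Cd79a was well above background in 3 of 13 Treg and 5 of 13 T-effector channels, and Pax5 in 2 and 4. Of 8 myeloid and dendritic and 4 stromal and endothelial markers that passed the filter, 0 changed in either sample type (limma). Of 6 regulatory T cell markers, 1 rose and 2 fell in Treg samples, and 1 rose and 1 fell in T-effector samples.

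The B cell sum also differed in other comparisons of Il6st. For TGFb against IL2 in Treg samples the B cell sum was 9142 to 10192 with TGFb, against 5197 to 7006 with IL2, while 1 of the 9 markers rose and 4 fell, and 2 of the 8 CD8 T and NK cell markers rose. For TGFb with IL6 against IL6 in Treg samples the B cell sum was 4957 to 5441 with TGFb and IL6, against 4128 to 4804 with IL6, while 1 of the 9 markers rose and 3 fell, and 2 of the 8 CD8 T and NK cell markers rose. Between cell samples, the B cell sum was higher in Treg in the same 3 conditions as Il6st. It was 4957 to 5441 in Treg samples, against 1544 to 2692 in T-effector samples, with TGFb and IL6. It was 9142 to 10192 in Treg samples, against 2678 to 3443 in T-effector samples, with TGFb, and 4128 to 4804 in Treg samples, against 2297 to 2441 in T-effector samples, with IL6. In each of these conditions 1 of the 9 markers was higher in Treg by the test and 0 were lower. With IL2 the B cell sums overlapped, at 5197 to 7006 in Treg samples against 6106 to 6754 in T-effector samples. The CD8 T and NK cell sum with TGFb and IL6 was 5477 to 6198 in Treg samples against 3724 to 4606 in T-effector samples, and 1 of the 8 markers was higher in Treg. In such linear sums the brightest markers weigh most, so a sum can differ, or rise, while most of its markers do not. In the comparisons of this paragraph in which the B cell sum differed, 1 of the 9 markers went the same way by the test. The part of other cells in the Il6st results was not tested.

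Il6ra, the chain that binds IL6 itself, did not follow Il6st. The probe tested for the gene, here the first probe (chr3:90003321-90003380, mm7), gave Treg signals of 7.57, 7.02, 7.80 and 7.02 with TGFb and IL6, against 7.74, 7.37 and 7.70 with TGFb. With IL6 the Treg signals were 7.17, 7.19 and 7.69, against 7.07, 7.68 and 6.79 with IL2. All these conditions overlapped. The IL6 difference in Treg samples was -0.25 ± 0.23 with TGFb (adjusted p = 0.734) and 0.16 ± 0.25 without it (adjusted p = 0.983). In T-effector samples it was -0.05 ± 0.23 and 0.25 ± 0.25 (adjusted p = 0.968 and 1). The 95% intervals in Treg samples still allow changes of -0.74 to 0.25 with TGFb.

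The Treg to T-effector ratio of Il6ra differed with IL2, where it was 0.67, 0.63 and 0.14 on the 3 arrays. The fitted ratio was 0.49 ± 0.12, or 1.40-fold (adjusted p = 0.0242), in a comparison in which 11.0% of all genes passed and 7.40% were higher in Treg. It was 0.40 ± 0.12 with IL6 (adjusted p = 0.0693), 0.18 ± 0.12 with TGFb (adjusted p = 0.461) and -0.02 ± 0.10 with TGFb and IL6 (adjusted p = 0.948). The second Il6ra probe (chr3:90013069-90013128, mm7) did not show it: its ratio with IL2 was 0.09, -0.05 and 0.00 on the 3 arrays, and the fitted value was 0.07 ± 0.13 (adjusted p = 0.777). Over the 13 arrays the ratios of the 2 probes correlated at -0.19, and the second probe was well above background in 12 of 13 Treg and 11 of 13 T-effector channels. The call on the first probe was lost without array 1 or array 2 of IL2, and the adjusted p was 0.073 without slide B.

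Il6ra in T-effector samples with TGFb passed when slide was a block, when slide B was left out or with Agilent's processed signals, and not otherwise. The first probe gave 7.66, 7.0 and 7.59 with TGFb, against 6.39, 7.05 and 6.65 with IL2, with 1 IL2 array above the lowest TGFb array. The difference was 0.72 ± 0.25 (adjusted p = 0.116), and 0.60 ± 0.15 with slide as a block (adjusted p = 0.0187) and 0.93 without slide B (adjusted p = 0.0329). For TGFb with IL6 against IL6 it was 0.43 ± 0.23 (adjusted p = 0.285), and 0.54 ± 0.14 with slide as a block (adjusted p = 0.0107). The second probe gave -0.03 ± 0.18 and 0.21 ± 0.17 (adjusted p = 0.956 and 0.501).

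**Figure D2:**
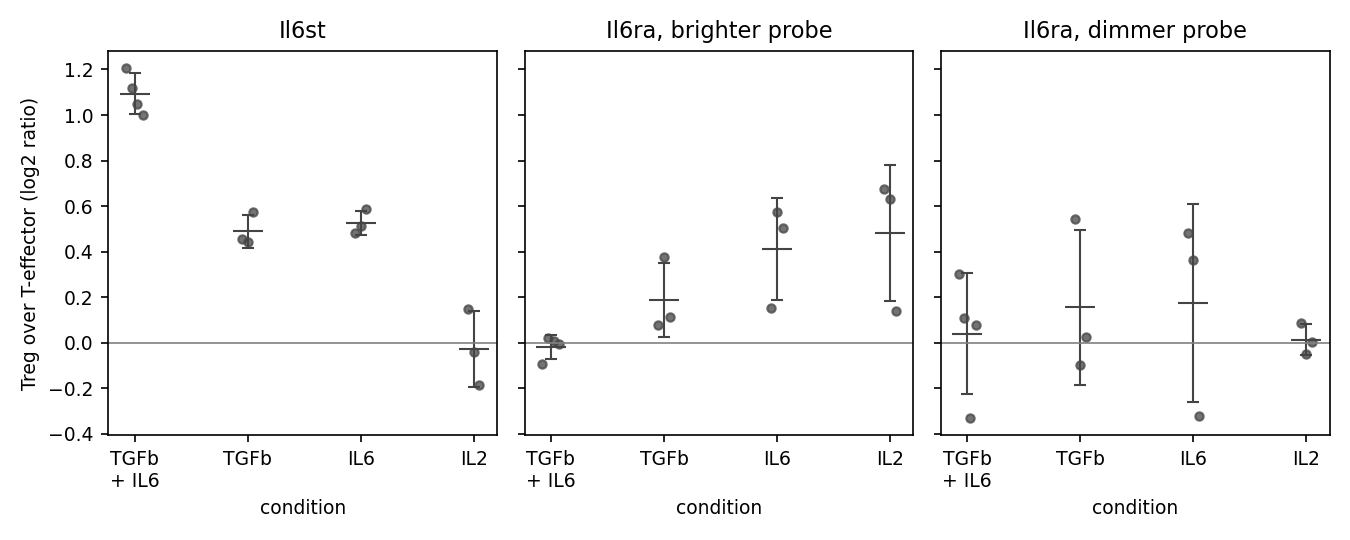
Log2 ratio of Treg to T-effector signal on every array (points) for Il6st and for both Il6ra probes, with the mean and 1 SD (n = 4 for TGFb with IL6, n = 3 otherwise); the grey line marks equal signals. Il6st ratios lie between 1.00 and 1.21 with TGFb and IL6 and straddle 0 with IL2, while the 2 Il6ra probes differ in the order of the conditions.

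Il27ra, the chain that pairs with the Il6st product to bind IL27, rose with IL6 past the threshold in Treg samples. Its T-effector difference had the same sign and did not pass as fitted. Treg signals were 9.73, 9.85, 9.30 and 9.86 with TGFb and IL6, against 9.09, 9.19 and 8.76 with TGFb, with no overlap. T-effector signals were 8.88, 9.63, 9.31 and 9.66 with TGFb and IL6, against 8.22, 9.05 and 8.95 with TGFb, and 1 array with IL6 lay below the 2 highest with TGFb. The difference was 0.71 ± 0.21 in Treg samples, or 1.64-fold (adjusted p = 0.0432), and 0.59 ± 0.21 in T-effector samples (adjusted p = 0.0966). Within slides E, B and D it was 0.64, 0.66 and 0.54 in Treg samples and 0.66, 0.58 and 0.36 in T-effector samples, higher with IL6 in 6 of 6 pairs. With the replicate block the adjusted p was 0.0105 in Treg and 0.0269 in T-effector samples, and with slide as a block 0.0018 and 0.00837. The Treg call was lost without 1 array in 9 of 13 cases, which include every TGFb array. Its adjusted p was 0.315 without slide B and 0.102 without slide E. The Treg to T-effector ratio of Il27ra was higher by 0.13 with TGFb and IL6 than with TGFb, and this did not pass. With slide as a block that value was 0.15 ± 0.17 (adjusted p = 0.951).

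Without TGFb, Il27ra gave Treg signals of 9.80, 10.05 and 9.44 with IL6, against 9.61, 8.89 and 9.51 with IL2. These overlapped, and the difference was 0.34 ± 0.22 (adjusted p = 0.781). In T-effector samples it was 0.19 ± 0.22 (adjusted p = 1). Averaged over the presence of TGFb, Il27ra was higher with IL6 by 0.53 ± 0.15 in Treg samples (adjusted p = 0.0386). With Il6st, 2 of 7 members rose in this average, where 6.27% of all genes changed and 3.09% rose. The Il27ra call was lost without any single one of 7 of the 13 arrays.

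Jak1, the kinase that signalling through the Il6st product depends on most, had the next largest IL6 difference with TGFb after Il6st, but it did not pass. Treg signals of its first probe were 12.07, 12.06, 12.06 and 12.27 with TGFb and IL6, against 11.27, 11.25 and 11.52 with TGFb. T-effector signals were 12.37, 12.20, 11.95 and 12.28 with TGFb and IL6, against 11.54, 11.50 and 11.38 with TGFb. The conditions did not overlap in either sample type. The difference was 0.78 ± 0.27 in Treg samples (adjusted p = 0.102) and 0.71 ± 0.27 in T-effector samples (adjusted p = 0.127), with a spread taken over all 4 conditions. Within slides E, B and D it was 0.80, 0.81 and 0.53 in Treg samples and 0.83, 0.70 and 0.57 in T-effector samples. With slide as a block both passed (adjusted p = 0.0148 and 0.0214), while with the replicate block neither did (0.0735 and 0.13).

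The second Jak1 probe (chr4:100529628-100529687, mm7) gave 0.40 ± 0.23 in Treg and 0.51 ± 0.23 in T-effector samples (adjusted p = 0.447 and 0.231). Jak1 varied most between arrays of IL6, with Treg signals of 11.54, 12.63 and 10.99 against 11.91, 10.98 and 11.05 with IL2. The 2 high values, 12.63 with IL6 and 11.91 with IL2, came from arrays of slide A. The IL6 difference without TGFb was 0.38 ± 0.29 in Treg and 0.07 ± 0.29 in T-effector samples (adjusted p = 0.854 and 1).

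**Figure D3:**
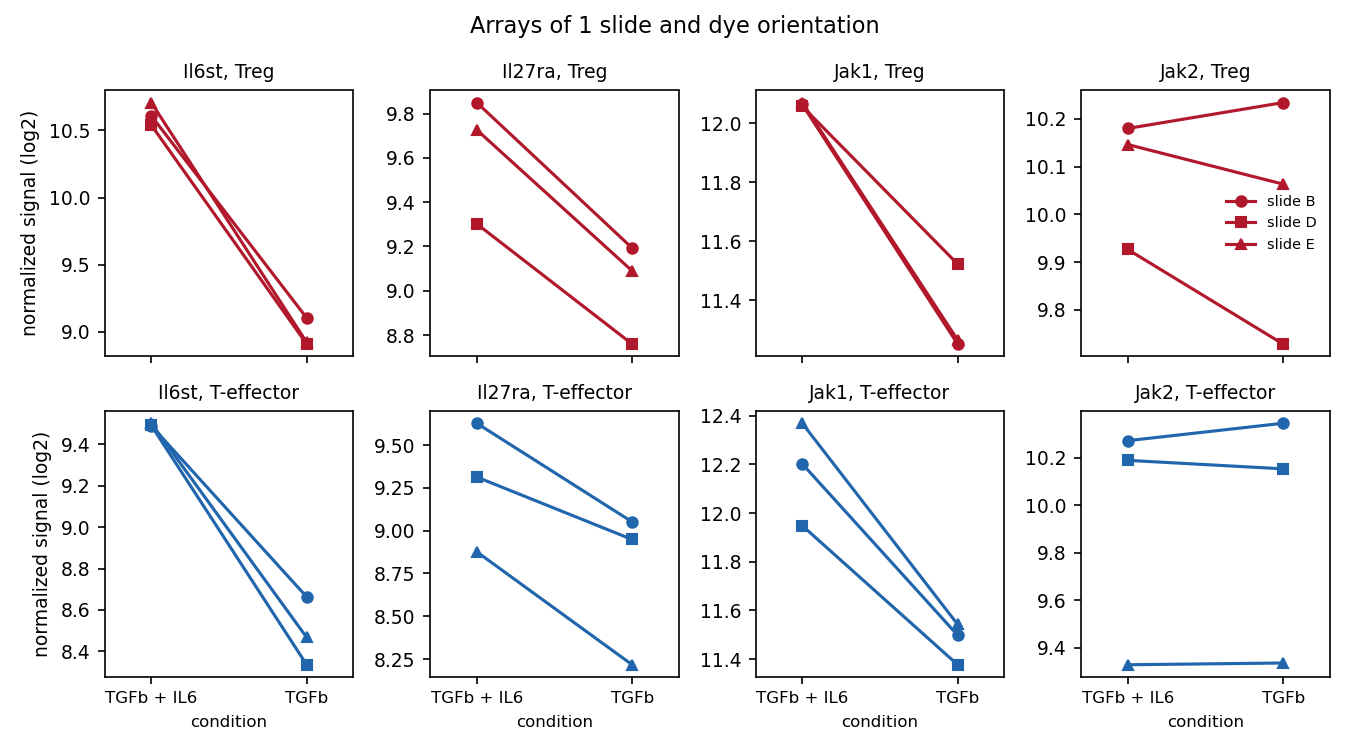
Normalized log2 signal of Il6st, Il27ra, Jak1 and Jak2 on paired arrays of TGFb with IL6 (left) and TGFb (right) that share a slide and dye orientation, in Treg (red) and T-effector (blue) samples; each line is 1 slide. All 3 lines are higher with IL6 for Il6st, Il27ra and Jak1 in both sample types, while the Jak2 differences lie between -0.07 and 0.20.

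Jak2 also sits on the IL6 receptor and on the receptors of IL12, IL23 and interferon gamma. It passed the threshold for TGFb in T-effector samples, and for IL6 in neither sample type. Its first probe gave T-effector signals of 9.33, 10.35 and 10.15 with TGFb, against 11.69, 11.58 and 11.85 with IL2. With TGFb and IL6 the T-effector signals were 9.33, 10.27, 10.19 and 10.03, against 10.73, 11.55 and 11.37 with IL6. The conditions with TGFb lay below those without it, with no overlap. The difference was -1.68 ± 0.33 for TGFb against IL2 (0.311-fold, adjusted p = 0.0033) and -1.30 ± 0.31 for TGFb with IL6 against IL6 (0.405-fold, adjusted p = 0.0067). These 2 comparisons share no array, but they are not independent. Arrays 1 to 3 of TGFb and of TGFb with IL6 are partners on a slide, and both comparisons use the same estimate of the spread. Slide B held only arrays with TGFb, and slides A and C only arrays without it, so TGFb and slide are partly confounded. With slide as a block the 2 differences were -1.88 (adjusted p = 0.000355) and -1.55 (adjusted p = 0.000361). On the 1 shared slide of each comparison the differences were -1.43 (slide D) and -1.41 (slide E).

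The second Jak2 probe ran the same way in T-effector samples. Its values were 6.73, 7.08 and 6.52 with TGFb, against 7.68, 7.59 and 7.92 with IL2, and the difference was -0.96 ± 0.24 (adjusted p = 0.0244). For TGFb with IL6 against IL6 it was -0.68 ± 0.22 (adjusted p = 0.0575). In Treg samples the first probe differed by -0.74 ± 0.33 for TGFb against IL2 (adjusted p = 0.212, and 0.0437 with slide as a block). It differed there by -0.36 ± 0.31 for TGFb with IL6 against IL6 (adjusted p = 0.576). The second probe averaged 6.80 in Treg samples with TGFb, against 7.35 with IL2. It averaged 6.93 there with TGFb and IL6, against 7.15 with IL6. Whether the TGFb difference of Jak2 differed between the sample types was not tested. Jak2 was thus 1 of 7 members that fell in T-effector samples with TGFb against IL2, where 4.53% of all genes changed and 2.55% fell, and 1 of 7 that fell with TGFb and IL6 against IL6, where 6.10% of all genes fell. Without slide E the difference of TGFb with IL6 against IL6 had an adjusted p of 0.0595.

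Sums of other cell markers were also lower with TGFb in the T-effector samples, that of B cell markers only in the comparison with IL2. The summed signal of 9 B cell markers was 2678 to 3443 with TGFb, against 6106 to 6754 with IL2, and 7 of the 9 fell. It was 1544 to 2692 with TGFb and IL6, against 2297 to 2441 with IL6, which overlapped, and 2 of the 9 fell. The summed signal of 8 CD8 T and NK cell markers was 3275 to 4234 with TGFb, against 5143 to 5649 with IL2, and 3724 to 4606 with TGFb and IL6, against 5279 to 6257 with IL6. In these comparisons 1 of the 8 fell each time, and 1 rose in the second. The part of these cells in the Jak2 result was not tested.

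IL6 left no Jak2 difference that passed. With TGFb the IL6 difference was 0.11 ± 0.31 in Treg and -0.03 ± 0.31 in T-effector samples (adjusted p = 0.941 and 0.986), and without TGFb it was -0.27 ± 0.33 and -0.41 ± 0.33 (adjusted p = 0.957 and 1), although the T-effector arrays with IL6 (10.73 to 11.55) lay just below those with IL2 (11.58 to 11.85). The 95% interval of the T-effector difference with TGFb runs from -0.67 to 0.61. The Treg to T-effector ratio of the first Jak2 probe with IL2 was -0.73, -0.59 and -1.78 on the 3 arrays, below 0 on all of them. The second probe gave 0.03, -0.67 and -0.49, and a fitted ratio of -0.38 ± 0.17 (adjusted p = 0.163). The fitted value of the first probe was -0.96 ± 0.30 (adjusted p = 0.0649), and with IL6 it was -0.82 ± 0.30 (adjusted p = 0.139). Without slide E both passed, at -0.99 (adjusted p = 0.00931) and -1.62 (adjusted p = 0.0237).

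**Figure D4:**
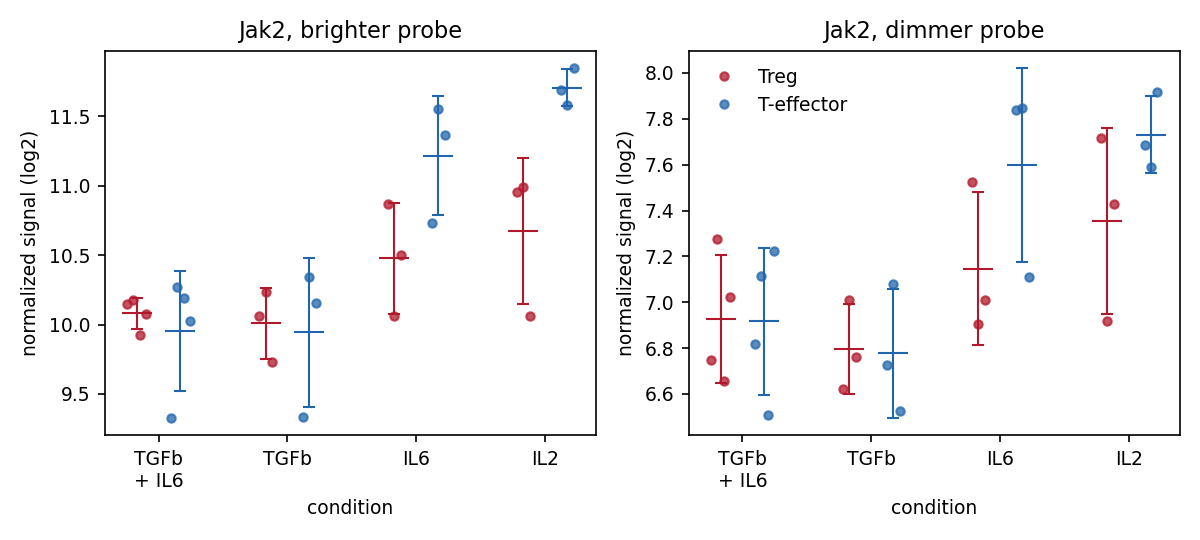
Normalized log2 signal of the 2 Jak2 probes on every array (points) in Treg (red) and T-effector (blue) samples, with the mean and 1 SD (n = 4 for TGFb with IL6, n = 3 otherwise); the probes have separate scales and their levels are not comparable. T-effector signals of the first probe lie between 9.33 and 10.35 in the conditions with TGFb and between 10.73 and 11.85 in those without.

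Jak3, the kinase bound to the common gamma chain of the IL2 receptor, and Tyk2, a kinase of the receptors of the IL6 family, IL12 and type I interferon, had no difference past the threshold in any comparison as fitted, while Tyk2 passed under some alternatives. Jak3 T-effector signals were 7.31, 8.04, 7.97 and 8.09 with TGFb and IL6, against 6.89, 7.84 and 7.63 with TGFb, and overlapped. The IL6 difference of Jak3 with TGFb was 0.39 ± 0.29 in Treg and 0.38 ± 0.29 in T-effector samples (adjusted p = 0.629 and 0.605). Tyk2 T-effector signals were 6.75, 7.07, 6.86 and 7.15 with TGFb and IL6, against 6.60, 6.96 and 6.81 with TGFb, and overlapped too. The IL6 difference of Tyk2 with TGFb was -0.01 ± 0.18 in Treg and 0.15 ± 0.18 in T-effector samples (adjusted p = 0.992 and 0.789). Against IL6 alone, TGFb with IL6 gave Tyk2 differences of -0.39 ± 0.18 in Treg and -0.29 ± 0.18 in T-effector samples (adjusted p = 0.217 and 0.379), and -0.56 ± 0.14 and -0.46 ± 0.14 with slide as a block (adjusted p = 0.00857 and 0.0249). The Treg value also passed with the spatial trend removed (-0.48, adjusted p = 0.026). Over the 4 conditions the means of Tyk2 spanned 0.41 in Treg and 0.44 in T-effector samples, against 2.50 and 1.49 for Il6st. The offset of 50 added at background correction narrows log2 differences of dim genes such as Tyk2 and Il6ra more than those of Il6st.

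The ratios of Jak3, Tyk2 and Il27ra, and of the first Jak2 probe, set the 3 arrays of slide E with Treg in Cy3 apart from the other 10. These 3 arrays belong to 3 conditions. The Jak3 ratio was 0.99 to 1.03 on them, against -0.44 to 0.66 on the other 10. The Il27ra ratio was 0.84 to 0.87, against -0.19 to 0.54, and the Tyk2 ratio 0.30 to 0.62, against -0.44 to 0.15. The second Jak3 probe gave 0.82 to 1.10, against -0.61 to 0.42. For Il6st the 2 sets of arrays overlapped. This was noticed after the values were seen. It was examined for the member probes only, so how common such a gap is among all genes is not known. Among spots above the median signal, medians of blocks of the array held 26.7% to 47.8% of the log ratio variance on slide E. On other slides the share was 1.02% to 18.8%. With the spatial trend removed, an alternative added after seeing the data, the Treg to T-effector ratio of Il27ra passed with TGFb and IL6 (0.28, adjusted p = 0.00139), with IL6 (0.50, adjusted p = 0.000106) and with IL2 (0.26, adjusted p = 0.00306), none of which passed as fitted. Jak3 and Tyk2 ratios passed in no condition under it.

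Counted together, 2 of the 7 members rose and 0 fell with TGFb and IL6 against TGFb in Treg samples, where 5.71% of all genes changed and 2.88% rose. In T-effector samples 1 of 7 rose, where 7.59% changed and 4.20% rose. The median difference of the members was 0.39 in Treg and 0.38 in T-effector samples, against -0.03 and -0.02 over all genes. For IL6 against IL2, limma called 0 of the 7 in both sample types, while 0.983% of all genes changed in Treg and 0.803% in T-effector samples. At an unadjusted p below 0.05 that comparison held 1 member and 1776 of 19932 genes in Treg samples, and 0 members and 991 genes in T-effector samples. Its median member difference was 0.34 in Treg and 0.07 in T-effector samples.

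**Figure D5:**
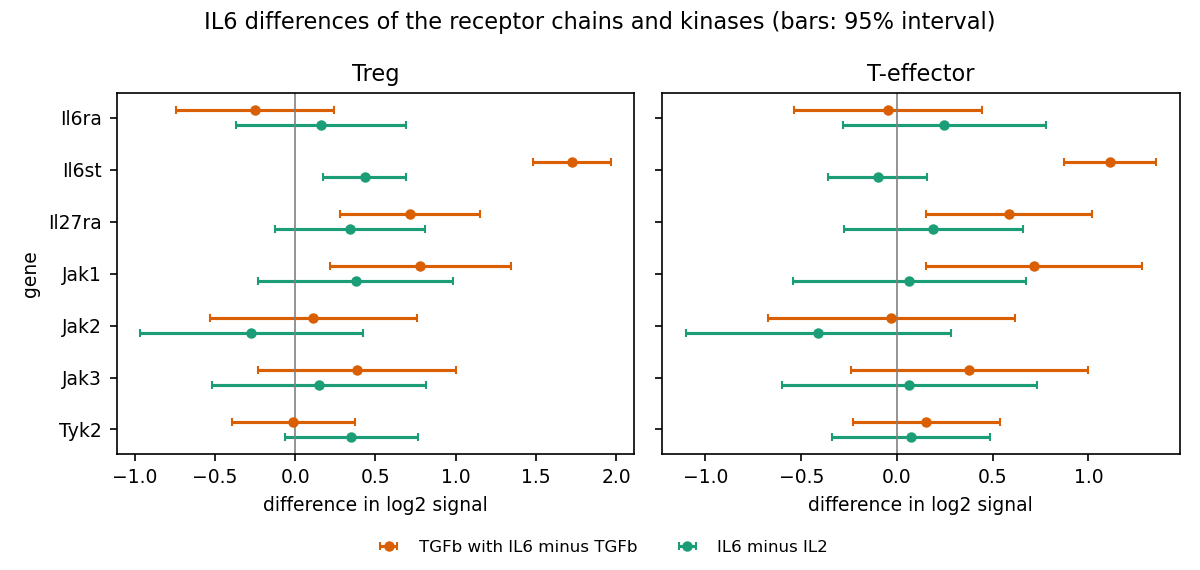
Difference in log2 signal with IL6 present minus absent for the 7 genes (brightest probe of each), with TGFb (orange) and without it (green), in Treg (left) and T-effector (right) samples; bars are 95% intervals and the grey line marks no difference. The Il6st differences with TGFb, 1.73 and 1.11, are the farthest from 0 in both panels.

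The partners of these genes were followed in 5 lists. With TGFb and IL6 against TGFb, 5.71% of all genes changed and 2.88% rose in Treg samples. In T-effector samples 7.59% changed and 4.20% rose. Of 12 measured genes among the other ligands and receptors of the IL6 family, 0 rose and 1 fell in Treg samples with TGFb and IL6 against TGFb, and 0 changed in T-effector samples. The one that fell was Ebi3, which encodes a subunit of IL27 and IL35, with 7.26 ± 0.06 against 8.25 ± 0.06 (SD, n = 4 and 3) and a difference of -1.01 ± 0.23 (adjusted p = 0.00869). Of 16 measured other receptor chains that use Janus kinases, 4 rose in Treg and 6 in T-effector samples, and 0 fell. Il4ra, the IL4 receptor chain, rose by 1.37 ± 0.22 in Treg and 1.32 ± 0.22 in T-effector samples, and Il7r, the IL7 receptor chain, by 1.23 ± 0.16 and 1.71 ± 0.16. Il21r, the receptor of IL21, rose by 1.20 ± 0.14 in Treg samples, and Ifngr1, a chain of the interferon gamma receptor, by 1.15 ± 0.23 in T-effector samples.

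Of the 7 STAT factors, 1 rose in Treg samples, and 3 rose and 1 fell in T-effector samples. Stat3, the main STAT of IL6, rose by 0.59 ± 0.14 in T-effector samples (adjusted p = 0.011), and Stat4, which carries IL12 signals, fell there by 1.13 with a standard error of 0.12 (adjusted p = 1.12e-06). Stat2 rose in both, by 0.53 ± 0.13 in Treg and 1.21 ± 0.13 in T-effector samples. Of 20 inhibitors and regulators of Janus kinase signalling, 1 rose in Treg and 3 in T-effector samples, and 0 fell. Socs3, the inhibitor that binds the Il6st product, averaged 12.10 ± 0.21 in Treg samples with TGFb and IL6 and 9.38 ± 0.16 with TGFb (SD, n = 4 and 3), a difference of 2.74 ± 0.24 (adjusted p = 8.71e-08). Its T-effector difference was 2.98 ± 0.24 (adjusted p = 2.5e-08), and Socs1 and Socs2 rose there by 1.46 ± 0.42 and 1.21 ± 0.30.

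Of 23 genes known to be induced by IL6 and STAT3, 13 rose in Treg and 12 in T-effector samples with TGFb and IL6 against TGFb, and 0 fell. Their median difference was 0.87 in Treg and 0.75 in T-effector samples, against -0.03 and -0.02 over all genes. Il21 and Il17f, cytokines of Th17 cells, rose by 4.55 ± 0.35 and 3.06 ± 0.12 in Treg and by 4.33 ± 0.35 and 3.58 ± 0.12 in T-effector samples. Without TGFb, 3 of the 23 rose in Treg and 4 in T-effector samples. In the other 4 lists 2 genes rose and 1 fell in Treg samples, and 0 rose and 1 fell in T-effector samples. Of all genes, 0.983% changed without TGFb in Treg and 0.803% in T-effector samples. Socs3 and Il23r stand in 2 lists each.

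The gene whose pattern was most like that of Il6st over the 26 channels was C030027H14Rik (Pearson r = 0.97), followed by Thada (r = 0.96). C030027H14Rik averaged 8.76 ± 0.07 in Treg samples with TGFb and IL6 and 6.25 ± 0.15 with TGFb (SD, n = 4 and 3). Among the members, Jak3 and Tyk2 ran most alike (r = 0.82), and Jak2 ran against Il6ra (r = -0.64) and Il6st (r = -0.54). These channels share arrays, slides and the 4 conditions, so the correlations only describe the patterns.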

How the data were processed

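Mean spot intensities and median local backgrounds of both dyes were used as deposited for 13 two-colour arrays. Per the file headers, they come from Agilent Feature Extraction, version 9.5.1.1. Flags for spots well above background were also taken from the deposited files. The processed intensities there are already background-subtracted and dye-normalized, and the deposited log10 ratio is Cy5 over Cy3, per the file headers. The authors' deposited table gives each probe a log2 value per condition, with centring not stated. Set against the arrays it correlated at 0.75 to 0.80 with Treg over T-effector, with column medians of -0.08, -0.05, -0.02 and -0.04 for IL2, TGFb, TGFb with IL6 and IL6.

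limma 3.58.1 (R 4.3.3) was used. Normexp (offset 50) corrected the background, its parameters being fitted on spots whose local background carried no mark, and loess normalized the log ratios. A probe was kept (28969 of 41174) if at least 3 of 26 channels lay well above background and at most 3 arrays lacked it. The brightest probe stood for a gene, which left 19932 genes. Treg and T-effector were compared by a fit of log ratios with a dye term (8 residual degrees of freedom). For the conditions, mean signals were quantile-normalized and channels fitted separately (17 residual degrees of freedom). Treg was in Cy5 on 2 of 4 arrays of TGFb with IL6, 1 of 3 of TGFb, 1 of 3 of IL6 and 2 of 3 of IL2. No member probe was saturated or missing on any array.

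Array numbers follow the order in the labels. Arrays 1 to 3 of TGFb with IL6 have a partner of the same number among the TGFb arrays, on the same slide and in the same dyes. Deviations of partners correlated at 0.51 to 0.85, and the replicate block pairs them. Slide was a random block for ratios and a fixed term for signals.

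The members, the lists and the named genes were chosen with earlier results of these data known. Named were all members, up to 3 genes of each pathway list with the largest difference past the threshold for TGFb with IL6 against TGFb, the 2 most similar genes of each member (a selection is given) and Foxp3. Alternatives were another background model, no background subtraction, Agilent's processed signals, median centring, no dye term, 2 other filters, every probe on its own, blocks, each array left out, the authors' table, and, added after seeing the data, a removed spatial trend, averaged dye swaps and slides B or E left out. The fits were tested on simulated data. The few arrays per condition limit the precision.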

Additional observations from a re-analysis of the deposited data

Results flagged for a closer look

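Only TGFb with IL6, the condition with 4 arrays, was examined. In 3 of 21 groups, 1 array was set off from the other 3 by a gap large against the range. Chance alone gives about 1 in 20 for independent groups, but these groups share the same arrays. The Il6st signal in T-effector samples was 9.95 on array 4 (slide B), against 9.49 to 9.50 on the other 3. The Jak1 signal in Treg samples was 12.27 on array 4, against 12.06 to 12.07 on the other 3. This gap is small beside the SD of Jak1 in Treg samples pooled over the conditions, 0.47. The Jak3 signal in T-effector samples was 7.31 on array 1 (slide E), against 7.97 to 8.09 on the other 3.

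For Il6st, 3 tests of a difference between effects passed. The Treg to T-effector ratio was higher by 0.61 with TGFb and IL6 than with TGFb (adjusted p = 0.0421), a call that was lost with the replicate block (adjusted p = 0.0678), with averaged dye swaps (0.136), without slide B (0.863) or E (0.316), and without any single one of 11 of the 13 arrays. The IL6 difference was larger with TGFb than without it by 1.29 in Treg and by 1.21 in T-effector samples, where the call was lost without slide E (adjusted p = 0.119).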

How the results depend on the processing

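Il6st passed in all 27 alternatives, the replicate block included, for TGFb with IL6 against TGFb, with Treg differences of 1.59 to 1.92 and T-effector differences of 0.87 to 1.31, and Jak2 passed in all 26 for TGFb against IL2 in T-effector samples (-1.92 to -1.42). Counts of members called out of 7 moved as follows, and the causes were not tested. Treg against T-effector with IL2 called 1, but 0 when all spots entered the background model (all-spot model) or without slide B, 2 without slide E, 3 with Agilent's processed signals or the spatial trend removed, 5 with median centring, and 0 to 2 on leaving out 1 array. With TGFb it called 1, but 2 with processed signals, 0 with the all-spot model, median centring or without slide B, and 0 to 1 on leaving out 1 array. With TGFb and IL6 it called 1, but 2 with processed signals or the spatial trend removed. With IL6 it called 1, but 3 with processed signals, median centring or the spatial trend removed, 0 with averaged dye swaps, and 0 to 2 on leaving out 1 array. The ratio difference of TGFb with IL6 against TGFb called 1, but 0 with the replicate block, median centring, no dye term, the stricter filter, averaged dye swaps or without slide B or E, and 0 to 1 on leaving out 1 array. The averaged IL6 comparison called 2 in Treg samples, but 1 with the all-spot model, no dye term, averaged dye swaps or without slide B, 3 with processed signals, slide as a block, the spatial trend removed or without slide E, and 1 to 2 on leaving out 1 array. In T-effector samples it called 1, but 2 with processed signals or slide as a block and 0 without slide E. TGFb with IL6 against TGFb called 2 in Treg samples, but 1 with the all-spot model, no dye term, no filter, averaged dye swaps or without slide B or E, 3 with slide as a block or the spatial trend removed, and 1 to 3 on leaving out 1 array. In T-effector samples it called 1, but 2 with the replicate block, processed signals or the spatial trend removed, 3 with slide as a block, and 1 to 2 on leaving out 1 array. TGFb against IL2 called 1 in each sample type, but 2 with processed signals or slide as a block, and 2 in T-effector samples without slide B. TGFb with IL6 against IL6 called 1 in Treg samples, but 2 with slide as a block or the spatial trend removed, and 1 to 2 on leaving out 1 array. In T-effector samples it called 2, but 5 with slide as a block, 3 without slide B and 1 without slide E. The IL6 difference with TGFb minus without it called 1 in T-effector samples, but 0 without slide E. Median centring moved the median ratio of all genes to -0.29 with IL2 and -0.32 with IL6, and turned the Treg to T-effector ratio of Il27ra to -0.62 with IL2 and -0.52 with IL6, and with IL6 that of Il6st to -0.19 and that of Jak1 to -1.07. It called 48.7% of all genes with IL2, 45.2% with IL6, 2.42% with TGFb and 1.34% with TGFb and IL6, where loess called 11.0%, 5.82%, 5.92% and 5.82%. Averaging arrays of the same slide, condition and dye could not be run, since no arrays share all of these. Slides B and E, the dye swaps and the spatial trend were tried after seeing the data.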
